A study of Mus musculus with 42 samples.

Results

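The genes that license DNA replication origins, unwind and copy DNA, supply its nucleotides and repack it behind the fork were followed in the lungs of newborn mice. The list holds 40 genes, chosen by name, of which 39 were measured, out of 18194 genes with a probe set naming that gene alone. Where a gene had several such probe sets, the 1 with the highest mean over all 42 arrays stood for it. Chaf1a, listed among the chromatin assembly genes, has no probe set of its own in the annotation used and was not analysed here. By role the measured members are 4 genes that control entry into S phase, 10 licensing genes, 5 genes that activate the helicase, 14 genes of the replication fork, 5 genes of nucleotide supply and 1 chromatin assembly gene.

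A cell can copy its genome only where the origin recognition complex, Cdc6 and Cdt1 have loaded the ring-shaped Mcm2 to Mcm7 helicase on DNA before S phase, a step called licensing. Cyclin E with its kinase and the Cdc45, GINS and Mcm10 proteins then switch the loaded helicase on, and polymerases, clamp, clamp loader, flap nuclease and ligase copy both strands. Transcription factors of the E2F family drive many of these genes as cells enter the cycle, so their transcripts are widely read as signs of proliferation, which the newborn lung needs for septation of its air spaces. Hyperoxia, a model of bronchopulmonary dysplasia of preterm infants, is known to damage DNA and to arrest lung cells in the cycle.

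Total RNA of whole-lung homogenate from 42 mice was hybridised to Affymetrix 3′ arrays, 1 mouse per array, in 14 groups of 3. Wild-type mice (WT, Nrf+/+) and mice lacking Nfe2l2 (KO, Nrf-/-), the gene for the antioxidant regulator NRF2, were kept in room air and taken on each of 4 postnatal days, P1 (day of birth) to P4. Further groups of both genotypes spent 1, 2 or 3 days in at least 95% oxygen for 23 h a day, which began within the first day after birth, and match the air groups of P2, P3 and P4 in age. Foster dams shared the cages in air and in oxygen. The deletion is present in every cell of the KO mice, the labels name no strain, sex or litter, and a homogenate mixes all cell types of the lung. Values are deposited log2 expression values, and differences are log2 differences of group means with their standard error (SE) from limma. A gene was called higher or lower at a Benjamini-Hochberg adjusted p under 0.05 over all 18194 genes.

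Nfe2l2 transcript lay between 10.32 and 11.56 in the WT arrays and between 4.26 and 5.46 in the KO arrays. The lung markers were high throughout, with surfactant gene Sftpc between 14.52 and 14.77. Other tissues were carried along in some arrays. A marker score, the mean log2 deviation of a tissue's markers from their median over the 42 arrays, was over 2 for thymocytes, erythroid cells, liver, heart or skeletal muscle in 17 arrays. Those include all 3 arrays of WT air P1 and all 3 of WT air P2. The liver score was over 2 in 9 WT arrays and 1 KO array. In 2 KO air groups such transcripts varied along with the members, in the same direction in KO air P2 and in the opposite direction in KO air P3. In KO air P2 the thymocyte score was 3.45, 0.94 and 2.59 in replicates 1 to 3, with 10, 1 and 6 of 12 markers more than 2 log2 units above their median, and the mean deviation of the 39 members from their own 42-array means was 0.68, -0.56 and -0.14. Rag1, which rearranges antigen receptor genes, stood at 12.64, 8.97 and 12.05 there against a median of 5.41, whereas Cd8a stayed near its median of 6.53. Replicate 3 of KO air P2 also had a liver score of 4.49 and a skeletal muscle score of 3.29. In KO air P3 the skeletal muscle score was 0.57, 6.13 and 2.72 in replicates 1 to 3 and the members' mean deviation was -0.17, -0.51 and -0.42. The part of these tissues in the results was not tested. Counts of calls that rest on KO air P2 or KO air P3 are given with and without the arrays high in thymocyte or muscle score. Leaving out all arrays with a score over 2 kept 0 arrays of WT air P1 and 0 of WT air P2. The WT rise from P1 therefore could not be fitted without them.

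**Figure D1:**
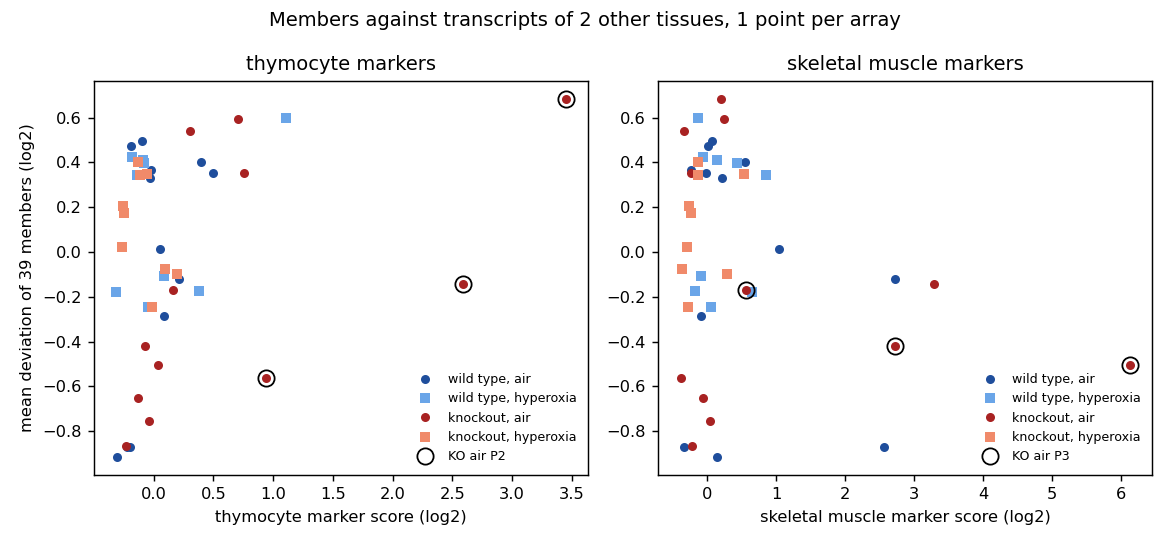
Mean log2 deviation of the 39 members from their 42-array means (vertical axis) against the log2 marker score of thymocytes (left) or skeletal muscle (right), 1 point per array; rings mark the 3 arrays of KO air P2 (left) and KO air P3 (right). The array with the highest thymocyte score, 3.45, also has the highest member mean, 0.68, and the array with a muscle score of 6.13 has a member mean of -0.51.

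Promoter sequences from RefSeq (GRCm38.p6) were available for 33 of the 39 measured members, as windows from 250 bases before to 50 bases after the annotated start. The E2F recognition sequence was searched for as TTTGGCGC, TTTCCCGC, TTTCGCGC or TTTGCCGC on both strands, and matches were allowed to overlap. It occurred in 14 of 33 members, or 42.4%, against 2.6% of all 27025 genes with such windows (2.26% of 32851 windows). By role it was in 7 of 9 licensing genes, 5 of 12 fork genes, 1 of 3 helicase activation genes, 1 of 3 entry control genes, 0 of 5 nucleotide supply genes and 0 of 1 chromatin assembly genes. A match describes the letters and was not tested as a binding site. The 160 bases before the start are shown 5′ to 3′ on the gene's strand for members with large changes (Mcm5, Cdc6, Dtl, Pola1 and, with no match in its window, Rrm2), for Mcm6, which has 3 matches, and for Orc1, whose 2 probe sets disagree. Capitals mark the E2F matches.
Mcm5 (chr8:75109349-75109508, plus strand): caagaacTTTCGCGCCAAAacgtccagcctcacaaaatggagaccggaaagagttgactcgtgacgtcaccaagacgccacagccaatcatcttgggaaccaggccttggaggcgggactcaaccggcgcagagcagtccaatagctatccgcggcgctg
Mcm6 (chr1:128359706-128359865, minus strand): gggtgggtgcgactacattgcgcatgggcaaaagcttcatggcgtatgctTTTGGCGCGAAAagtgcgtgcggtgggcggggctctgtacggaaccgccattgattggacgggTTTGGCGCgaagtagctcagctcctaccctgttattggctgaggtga
Cdc6 (chr11:98907991-98908150, plus strand): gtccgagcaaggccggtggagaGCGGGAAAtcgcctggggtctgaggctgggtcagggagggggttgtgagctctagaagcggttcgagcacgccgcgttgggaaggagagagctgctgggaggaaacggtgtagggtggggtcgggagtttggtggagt
Dtl (chr1:191575545-191575704, minus strand): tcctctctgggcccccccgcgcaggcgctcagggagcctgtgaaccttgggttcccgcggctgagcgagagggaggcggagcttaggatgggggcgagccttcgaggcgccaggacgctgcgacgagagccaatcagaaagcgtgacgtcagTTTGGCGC
Pola1 (chrX:93632156-93632315, minus strand): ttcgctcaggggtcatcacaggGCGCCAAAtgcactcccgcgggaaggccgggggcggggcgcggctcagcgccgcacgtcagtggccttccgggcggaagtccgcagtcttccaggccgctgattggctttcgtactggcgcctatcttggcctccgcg
Orc1 (chr4:108579294-108579453, plus strand): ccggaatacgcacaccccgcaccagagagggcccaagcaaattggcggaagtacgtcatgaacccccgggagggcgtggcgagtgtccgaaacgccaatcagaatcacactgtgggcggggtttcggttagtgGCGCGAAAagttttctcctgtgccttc
Rrm2 (chr12:24708094-24708253, plus strand): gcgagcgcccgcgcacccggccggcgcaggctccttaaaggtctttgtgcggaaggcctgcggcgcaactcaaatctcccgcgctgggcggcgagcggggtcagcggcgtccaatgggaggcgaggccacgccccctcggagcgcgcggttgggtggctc
Mcm5 and Mcm6 each hold overlapping matches on opposite strands, Mcm6 has a further match closer to its start, and in Dtl the match ends at the base before the start. Rrm2, the gene with the largest rise of all members in WT air, has none of these letters in its window.

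In air the members rose together over the first days of life. From P1 to P4, 37 of 39 members were called higher in WT lungs, with a median difference of 1.37, against 11.2% of all genes called higher and a median over all genes of 0.01. In KO lungs 36 of 39 were called higher (median 1.21), against 8.09% of all genes. In these bulk samples more cells in cycle and more RNA per cycling cell cannot be told apart. When the scores of those 5 tissues entered the model as covariates, 34 and 33 members were called. None was called lower in either genotype.

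**Figure D2:**
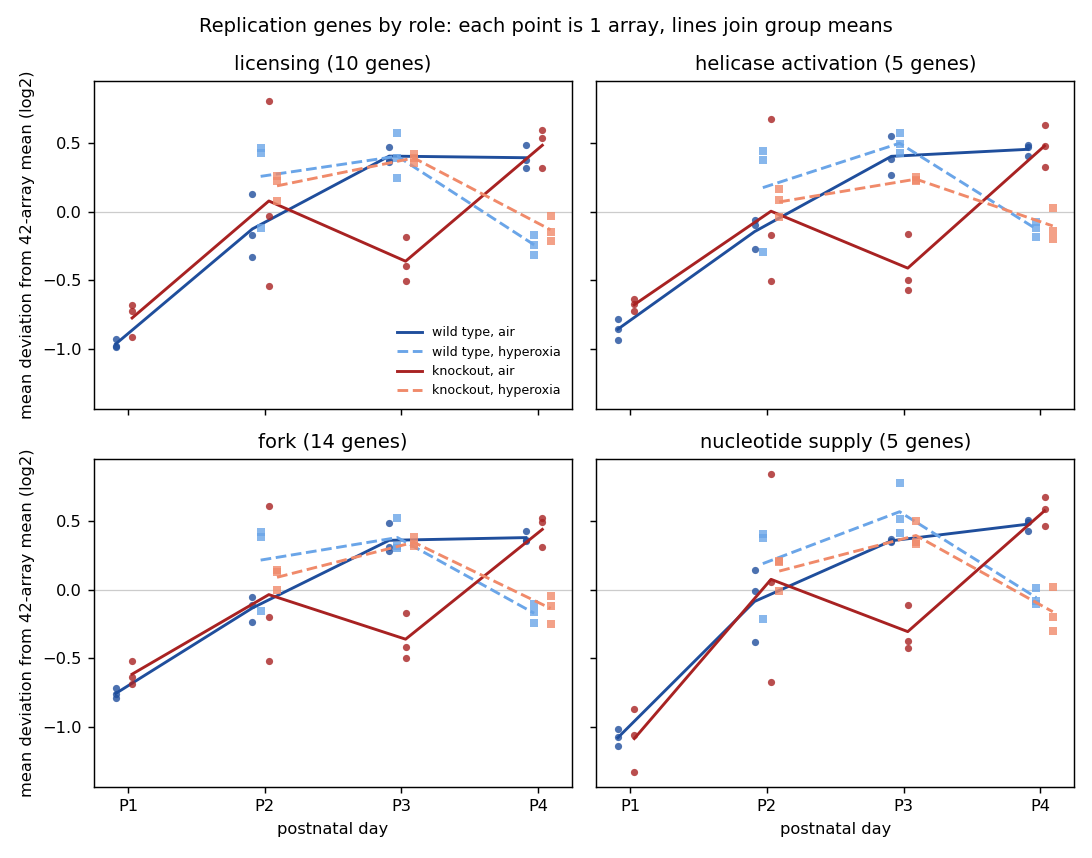
Mean log2 deviation of the members of a role from their 42-array means (vertical axis) at P1 to P4, for 4 roles; points are arrays, lines join group means, blue is wild type, red is knockout, and dashes and squares mark hyperoxia. In WT air all 4 panels show higher arrays at P3 than at P1, in both genotypes the P4 hyperoxia means lie under the air means, and the 3 KO air P2 arrays of the nucleotide supply panel run from -0.67 to 0.84.

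Among the entry genes Ccne2, which encodes cyclin E2, was the one with the largest rise in WT air. Its level was 6.05, 6.13 and 6.15 at P1 and 8.60, 8.86 and 8.56 at P4, so that no array of one age reached the other. The difference was 2.57 (SE 0.29, 5.92-fold, limma adjusted p 1.1e-07), and in KO air it was 2.84 (SE 0.29, adjusted p 2.6e-08). Dtl, the substrate receptor of a ubiquitin ligase that destroys Cdt1 during S phase, rose by 2.22 in WT air (SE 0.25, adjusted p 7.8e-08).

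Of the 10 licensing genes 9 were called higher in both genotypes (median 1.42 in WT and 1.32 in KO). Cdc6, the loader that brings the helicase to the origin, led them. It read 6.0002, 5.90 and 5.96 at P1 and 8.32, 8.55 and 8.21 at P4 in WT air. The ages did not overlap, and the mean rose by 2.41 log2 units (SE 0.34, adjusted p 2.2e-06 in limma), which is 5.31-fold. All 6 helicase subunits Mcm2 to Mcm7 were called higher in both genotypes, by 1.16 to 2.01 in WT and by 1.15 to 1.59 in KO. Mcm5 had the largest rise of the 6 in WT air, from 8.54, 8.87 and 8.77 to 10.68, 10.77 and 10.75.

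All 5 helicase activation genes and, in WT, all 14 fork genes were called higher. Cdc45, which joins the Mcm ring to form the active helicase, stood at 6.24, 6.34 and 6.21 at P1 and at 7.72, 7.86 and 7.82 at P4 (difference 1.54, SE 0.22, limma adjusted p 4.2e-06). Gins1, a subunit of the GINS complex in the same machine, went from 6.37, 6.11 and 6.28 to 7.64, 7.73 and 7.92. The ages were well apart for both genes, with no overlap of arrays. At the fork Pola1, the catalytic subunit of the polymerase that starts each strand, rose by 1.80 (SE 0.21, 3.48-fold, adjusted p 2.2e-07), from 6.54, 7.12 and 6.93 to 8.63, 8.81 and 8.56. Lig1, the ligase that seals the lagging strand, rose by 1.47 (SE 0.18, adjusted p 4.4e-07), from 8.46, 8.67 and 8.69 to 10.09, 10.15 and 9.98. The smallest fork difference in WT was 0.53. In KO lungs 13 of 14 fork genes were called, and Fen1, the flap nuclease, at 0.37, was not.

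Nucleotide supply held the members with the widest range of rises. All 5 of its genes were called higher in both genotypes, from 0.34 to 2.94 in WT. Rrm2, the small subunit of ribonucleotide reductase that is made in S phase, rose from 8.59, 8.67 and 8.57 to 11.52, 11.65 and 11.48 (2.94, SE 0.37, 7.68-fold, limma adjusted p 5.6e-07). Tk1, the thymidine salvage kinase, rose from 6.63, 7.26 and 7.02 to 9.40, 9.47 and 9.62 (2.53, SE 0.27, adjusted p 4.7e-08). Tyms, the thymidylate synthase, had the smallest rise, read by a probe set near the low end of the arrays' values. Chaf1b, a subunit of the histone chaperone that packs new DNA, rose from 7.13, 7.38 and 7.18 to 8.38, 8.61 and 8.29 (1.19, SE 0.19, adjusted p 1.6e-05). Medians by role in WT air were 1.43 for entry control, 1.42 for licensing, 1.41 for helicase activation, 1.09 for the fork and 1.13 for nucleotide supply, and these roles were not tested against each other.

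**Figure D3:**
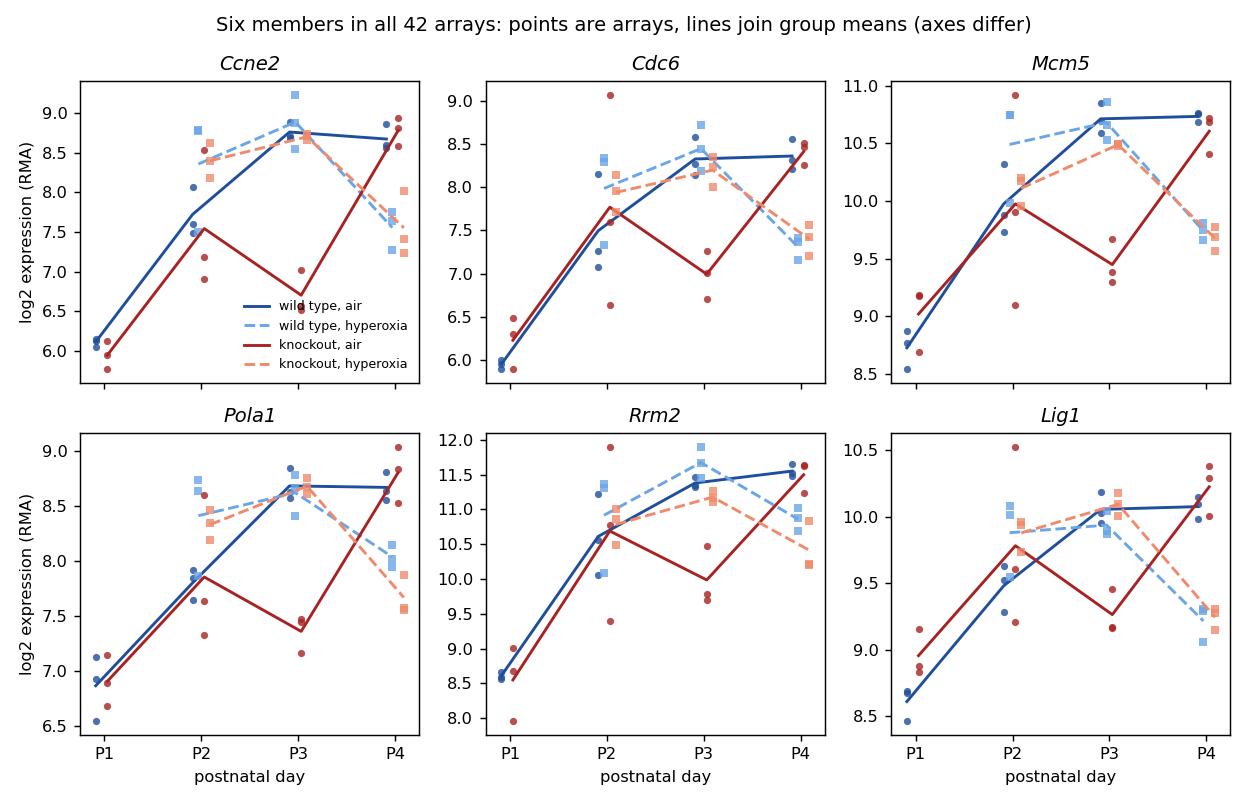
Log2 expression of 6 members at P1 to P4 in all 42 arrays; points are arrays, lines join group means, blue is wild type, red is knockout, dashes and squares mark hyperoxia, and the vertical axes differ between panels. In WT air all 6 climb from P1 to P3 and stay level to P4, the KO air P2 arrays lie far apart (Cdc6 9.07, 6.64 and 7.59), and both hyperoxia groups at P4 lie below both air groups.

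Most of the WT rise came in the first steps. Between P1 and P2, 28 of 39 members were called higher (median 0.72), against 6.25% of all genes, and Rrm2 had already gained 2.00 (SE 0.37, limma adjusted p 0.00037). With each of these arrays left out in turn the count of 28 fell to between 21 and 26. Between P2 and P3, 8 were called higher (median 0.51), against 2.20% of all genes, and 31 had an unadjusted p under 0.05. Leaving out 1 array at a time brought that count to between 0 (without WT air P3 replicate 1) and 4, and 3 were called without any 1 of P2 replicates 2 and 3 and P3 replicates 2 and 3, and 4 without P2 replicate 1. Between P3 and P4 limma called 0 members, against 0.00550% of all genes called in either direction, and 0 members had an unadjusted p under 0.05. The differences of that last step ran from -0.12 to 0.18, with 95% half-widths of 0.20 to 0.76. Over the 36 members called higher from P1 to P4 in both genotypes, the median share of the WT rise reached at P2 was 58.0%.

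The KO course in air runs through both of the groups that carried other tissues. From P1 to P2, 26 members were called higher (median 0.83), against 6.86% of all genes. The members' mean deviation had an SD of 0.63 in KO air P2 and 0.11 in KO air P1. The model takes 1 spread per gene from all 14 groups, and with only the arrays of this comparison the count was 0. Rrm2 read 9.01, 8.68 and 7.96 at P1 and 11.89, 9.40 and 10.78 at P2. Its highest P2 value is in the array with the most thymocyte transcripts. KO air P2 replicate 3 was also rich in liver and skeletal muscle transcripts, so leaving it out is not specific to thymocytes. Without KO air P2 replicate 1 the count was 9, and without replicates 1 and 3, the 2 arrays rich in thymocyte transcripts, it was 0 with a median of 0.19. From P2 to P3, 7 members were called lower (median -0.37), against 10.9% of all genes, close to that background. That count was 24 without KO air P2 replicate 2, 1, still lower, without P3 replicate 2 or P3 replicate 3, and 1, now higher, without P2 replicate 1. With both thymocyte-rich arrays left out it was 0 and the median turned to 0.17. From P3 to P4, 37 members were called higher (median 0.85), against 8.12% of all genes, and 3 without the 2 muscle-rich arrays, KO air P3 replicates 2 and 3, where the median was 0.64 and the single array left was taken to vary like the other groups.

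Orc1 and Ccne1 were the members that did not follow the rise in WT air. Orc1, the largest subunit of the origin recognition complex, read 7.23, 7.40 and 7.50 at P1 and 7.47, 7.29 and 7.26 at P4 on the probe set used, with overlapping arrays and a difference of -0.04 (SE 0.10, limma adjusted p 0.86). A second Orc1 probe set, lower in mean level at 6.22 against 7.33, read 5.72, 5.67 and 5.91 at P1 and 6.48, 6.40 and 6.50 at P4. It gave 0.69 (SE 0.14, adjusted p 0.00033), so that the 2 probe sets of this gene disagree on whether it changed. Ccne1, which encodes cyclin E1, read 8.29, 7.83 and 7.81 at P1 and 8.30, 8.19 and 8.49 at P4, a difference of 0.35 (95% interval -0.04 to 0.74). Its second probe set rose by 1.02 (SE 0.18, adjusted p 9.6e-05).

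**Figure D4:**
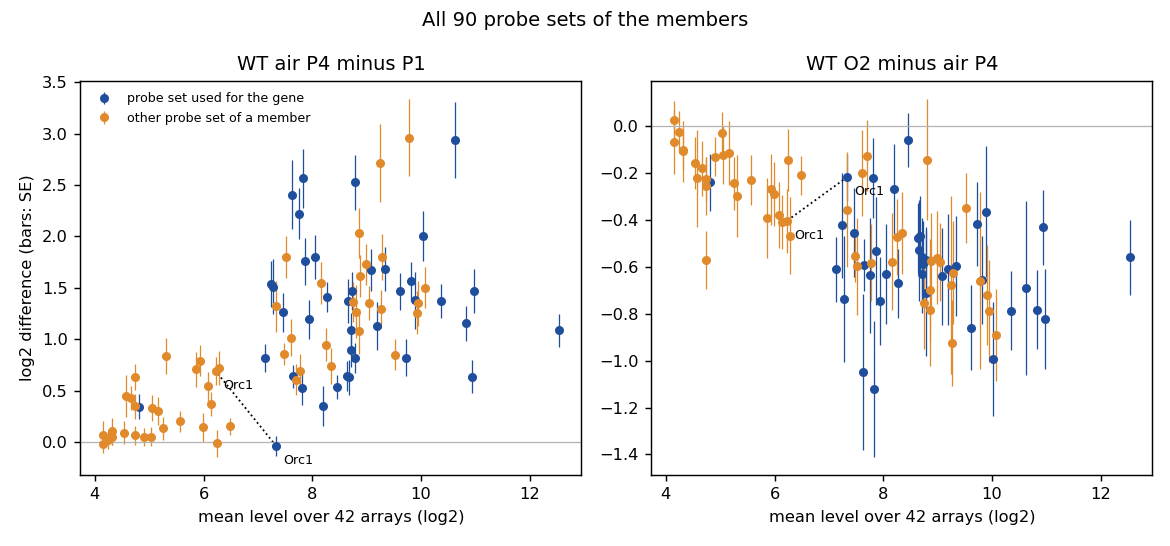
Log2 difference with SE bars (vertical axis) against mean log2 level over 42 arrays (horizontal axis) for all 90 single-gene probe sets of the members, for WT air P4 minus P1 (left) and WT hyperoxia minus air at P4 (right); blue is the probe set used for its gene, orange the others, and a dotted line joins both Orc1 probe sets. Of the probe sets with a mean below 7, 11 were called higher on the left and 5 lower on the right, and the Orc1 probe set used lies apart from the other probe sets of its level on the left.

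Across all 90 probe sets of the members, 60 of the 62 with a mean of 7 or more were called higher from P1 to P4 in WT air, and 11 of the 28 with a mean below 7. After 3 days of hyperoxia in WT, 39 of those 62 and 5 of those 28 were called lower. Among the members' probe sets the share called was thus smaller for the dimmer ones, but some of these changed clearly. The share over all probe sets at these levels is not given here, so that difference is not read as particular to the members. Of the 4 Tyms probe sets, with means from 4.23 to 4.82 near the arrays' 10th percentile of 4.27, the one used gave 0.34 in WT air and the next brightest, at 4.74, gave 0.63 (SE 0.12, limma adjusted p 0.00026).

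Other genes of the pathway moved with the members in air. Of 67 further replication genes outside the list, inhibitors not counted, 50 were called higher and 1 lower in WT from P1 to P4 (median 0.56), and 49 and 3 in KO. By group the WT counts were 9 of 13 for origins and helicase, led by Cdc7, a kinase that fires origins, at 1.50. They were 17 of 21 for the fork and its repair, led by topoisomerase Top2a at 2.86, and 12 of 12 for S phase control, led by cyclin A2, Ccna2, at 2.71. Of 8 histone and chromatin genes 7 were called higher, led by the remodeller Hells at 1.98. Nucleotide supply was mixed, with 5 of 13 higher, led by deoxycytidine kinase Dck at 1.72, and Samhd1, which breaks nucleotides down, lower at -0.73. All 15 reference genes of mitosis were called higher, Aurkb most at 3.29, and the proliferation marker Mki67 gave 2.25.

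After 3 days of hyperoxia most members were lower than in air in both genotypes. At P4, 25 of 39 were called lower in WT (median -0.60), against 12.5% of all genes, and 28 of 39 in KO (median -0.59), against 14.7% of all genes. None was called higher. All 6 Mcm genes were called lower in both, with differences from -0.99 to -0.60 in WT and from -0.93 to -0.59 in KO. Licensing had 7 of 10 called lower in both genotypes, the fork 11 of 14 in WT and 8 of 14 in KO, and nucleotide supply 1 of 5 in WT and 5 of 5 in KO. The WT count of nucleotide supply depends on the probe set: a second one of Tyms (-0.57, SE 0.12, limma adjusted p 0.00069) and of Dut (-0.47, SE 0.17, adjusted p 0.038) was called lower where the one used was not.

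Ccne2 had the largest fall in both. It read 8.60, 8.86 and 8.56 in WT air at P4 against 7.27, 7.76 and 7.63 in oxygen, a difference of -1.12 (SE 0.29, limma adjusted p 0.0037). In KO it read 8.82, 8.59 and 8.94 in air and 7.23, 7.41 and 8.02 in oxygen, a difference of -1.23 (SE 0.29, adjusted p 0.0013). In neither genotype did the arrays of air and oxygen overlap. Cdc6 in WT oxygen read 7.15, 7.41 and 7.37, a difference of -1.05 (SE 0.34, adjusted p 0.017), and in KO -1.01 (SE 0.34, adjusted p 0.020). Gins1 in WT oxygen read 7.02, 6.95 and 7.11, or -0.74 from air (SE 0.27, adjusted p 0.039), and in KO oxygen 6.92, 7.03 and 7.10. Cdc45, its partner in the active helicase, was at -0.42 in WT and -0.43 in KO and was called in neither. It gained a call in 2 of 15 alternative runs in WT and in 3 of 15 in KO.

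At the fork Lig1 fell most in WT. Its oxygen arrays read 9.05, 9.30 and 9.29, all under the 9.98 of the lowest air array, and the difference was -0.86 (SE 0.18, limma adjusted p 0.00049). In KO it was -0.98 (SE 0.18, adjusted p 8.6e-05). Pola1 was at 7.94, 8.02 and 8.14 in WT oxygen (-0.63, SE 0.21) and at 7.57, 7.56 and 7.87 in KO oxygen (-1.13, SE 0.21, adjusted p 0.00010). Chaf1b was at 7.70, 7.57 and 7.76 in WT oxygen and at 7.44, 7.18 and 7.72 in KO oxygen, with differences of -0.75 (SE 0.19) and -1.17 (SE 0.19). Both genes were called lower in both genotypes, with no overlap of arrays.

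Nucleotide supply was called less evenly. Tk1 fell in both, to 8.78, 8.83 and 8.75 in WT (-0.71, SE 0.27, limma adjusted p 0.047) and to 8.58, 8.32 and 8.78 in KO (-0.96, SE 0.27, adjusted p 0.0059). Rrm2 was at 10.88, 11.02 and 10.69 in WT oxygen, below every air array, but its difference of -0.69 (SE 0.37) was not called (adjusted p 0.18). That SE comes from the spread of Rrm2 in all 14 groups, which include KO air P2, where its arrays lay far apart. Rrm2 in WT gained a call in 2 of 15 alternative runs, so the missing call does not show that it stayed level. In KO it was at 10.20, 10.21 and 10.83 and was called lower (-1.09, SE 0.37, adjusted p 0.025). Some of these WT calls are near the threshold. With the tissue scores as covariates Tk1 gave -0.31 (adjusted p 0.48), Gins1 -0.24 (0.39) and Pola1 -0.38 (0.19), and the call was lost without any 1 of the 6 arrays for Tk1 and Gins1 and without 4 of the 6 for Pola1 (WT air replicates 1 and 2, oxygen replicates 1 and 2). These oxygen effects were not shown to differ between genotypes. In the test of KO effect minus WT effect at P4 limma called 0 members, against 0.561% of all genes in either direction, and 0 had an unadjusted p under 0.05. For the 5 nucleotide supply genes that difference had a median of -0.14, with 95% intervals reaching from -1.47 to 0.68.

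Over the 36 genes called higher in air in both genotypes, the median share of the air rise from P1 to P4 that was present at P4 in oxygen was 51.8% in WT, with a range of 7.12% to 88.9%, and 48.2% in KO, with a range of 2.67% to 72.9%. E2f1 kept the least in WT, and Gins3 in KO. Oxygen at P4 was not tested against P1. Leaving out WT O2 P4 replicate 1 brought the WT count from 25 to 16, and leaving out KO O2 P4 replicate 2 brought the KO count from 28 to 17. With the other-tissue scores as covariates the counts were 12 (median -0.31) and 15 (median -0.32). The share of all genes called in that fit is not given here. In WT O2 P4 the liver score was 4.78, 1.35 and 3.36 and the members' mean deviation -0.24, -0.11 and -0.17, lowest in the array with the highest score. In WT air P4 liver scores of -0.34, -0.41 and 5.54 went with mean deviations of 0.37, 0.47 and 0.40. The array with the highest liver score had the lowest mean deviation in WT air P3 (score 5.73) and WT O2 P2 (5.31). It had the highest in WT air P1 (5.35) and WT air P2 (7.76). In KO O2 P4 the liver score was below 0 in all 3 arrays and the mean deviation was -0.10, -0.25 and -0.08. The part of liver transcripts in the lower values was not tested.

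**Figure D5:**
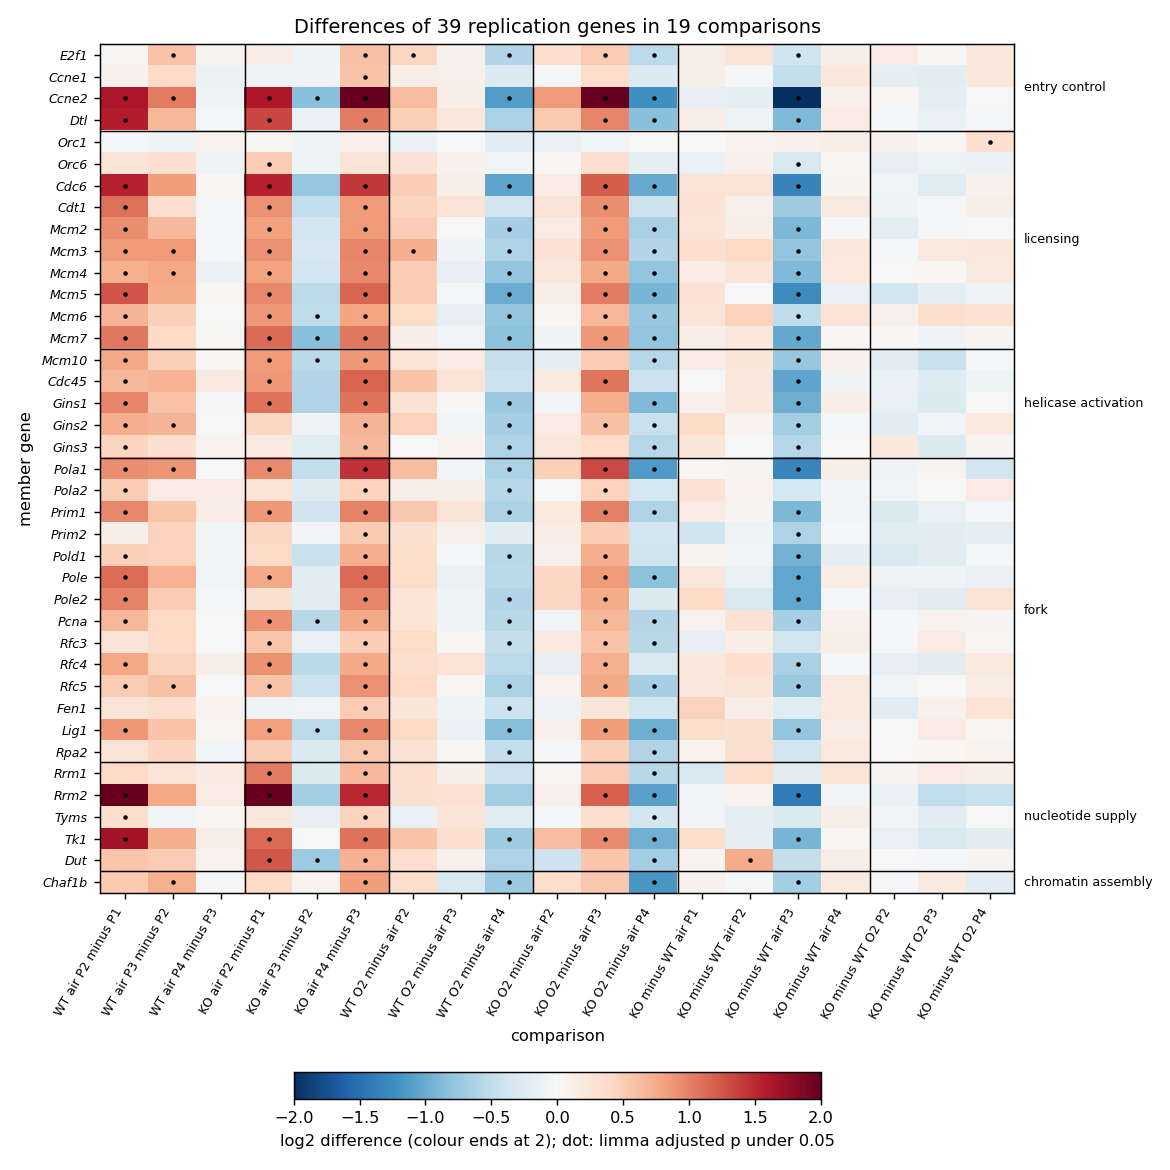
Log2 differences of the 39 measured members (rows, ordered by role) in 19 comparisons (columns), red for higher and blue for lower in the group named first, with the colour scale ending at 2 on either side and a dot where the limma adjusted p is under 0.05. Most dots lie in the early air steps of both genotypes, KO air P4 minus P3, hyperoxia against air at P4 in both genotypes, KO hyperoxia against air at P3, and KO against WT in air at P3.

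Cyclin kinase inhibitor Cdkn1a, which encodes p21, went the other way. In WT it read 9.89, 9.89 and 9.82 in air at P4 and 13.07, 13.02 and 13.07 in oxygen, a difference of 3.19 (SE 0.16, limma adjusted p 1.8e-15), and in KO it was 3.18 (SE 0.16). Its means in oxygen at P2, P3 and P4 were 11.25, 12.31 and 13.05 in WT and 10.96, 12.30 and 12.92 in KO. At P3 no member was called in WT oxygen against air, and most were called higher in KO. In air at P3 the Cdkn1a mean was 10.05 in WT and 10.97 in KO. In WT air it fell by 1.10 from P1 to P4. Among the other negative regulators both directions occurred. Geminin, Gmnn, which blocks Cdt1, was higher at P4 than at P1 in WT air (0.80) and lower in oxygen (-0.98 in WT and -1.34 in KO). Cdkn2c, an inhibitor of the cyclin D kinases, was at 2.02 in WT air and at -0.98 and -1.53 in oxygen. Cdkn1c was at -1.12 and -1.22 in oxygen, Cdkn1b at -0.54 and -0.68, and the pocket protein Rbl2 at -0.34 in both, all called lower. Small rises were called for E2f6 in WT air (0.48), E2f4 in WT oxygen (0.28) and Rb1 in KO oxygen (0.35), and Cdkn1b (-0.43) and Rbl2 (-0.37) were called lower in WT air.

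Of the 67 further pathway genes 25 were called lower and 6 higher in WT oxygen at P4, and 35 and 5 in KO. Dscc1, a subunit of the alternative clamp loader, was lowest at -1.27 in WT and -1.68 in KO, and Ccna2 gave -1.10 and -1.45. Over all genes 2732 of 18194 were called higher in WT and 3089 in KO, so that the pathway's higher calls are a smaller share than among all genes. They include the origin recognition subunits Orc2, at 0.31 in WT and 0.36 in KO, and Orc4, at 0.30 and 0.43. In WT the largest changes of the remaining lists were Pole4 at 0.31, Topbp1 at -0.53, Nasp at -0.82, Samhd1 at 0.41 and Paics at -0.40. In KO they were Pold4 at 0.26, Topbp1 at -0.59, Asf1b at -0.77, Dctd at 0.57 and Dck at -0.76. Of the 15 mitosis genes 13 were called lower in WT and 15 in KO, Cenpf most in both (-1.24 and -1.98), and Mki67 gave -1.10 and -1.73.

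Shorter exposure gave a different picture. After 1 day 2 members, E2f1 and Mcm3, were called higher in WT (median 0.36), against 2.64% of all genes, and 17 had an unadjusted p under 0.05. That count was 13 without WT O2 P2 replicate 3, whose members' mean deviation was -0.18 against 0.42 and 0.41 in the other 2 arrays and whose liver score was 5.31. It was 0 without any 1 of WT air P2 replicates 1 and 2 and WT O2 P2 replicates 1 and 2, and 1 without WT air P2 replicate 3. In KO limma called 0 after 1 day (median 0.14), against 9.06% of all genes in either direction, and 6 had an unadjusted p under 0.05. There the air group is the one with thymocyte transcripts: 14 members were called higher without its replicate 1, 1 was called lower without its replicate 2, and 8 were called higher without replicates 1 and 3. The difference of these effects between genotypes had 0 calls (1 with an unadjusted p under 0.05), against 2.69% of all genes, 4 calls, all lower, without KO air P2 replicate 2, and 0 calls without replicates 1 and 3, where the median went from -0.26 to 0.30.

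After 2 days limma called 0 members in WT (median 0.04), against 5.40% of all genes in either direction, and 0 had an unadjusted p under 0.05. The WT differences lay between -0.31 and 0.32, and their 95% intervals reached from -0.70 to 1.05. In KO, 26 members were higher in oxygen than in air at P3 (median 0.72), against 8.87% of all genes. Ccne2 read 7.02, 6.51 and 6.56 in KO air and 8.71, 8.66 and 8.75 in oxygen (2.00, SE 0.29, limma adjusted p 1.8e-05). Those KO air arrays are the ones with skeletal muscle transcripts. The count was 17 without replicate 2 of that group and 3 without replicates 2 and 3 (median 0.51), where Ccne2 gave 1.68 (adjusted p 0.018).

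Between genotypes the main fit called few members at most ages, and many at P3 in air. In air at P1 limma called 0 members (5 with an unadjusted p under 0.05), against 6.78% of all genes, and 1 without KO air P1 replicate 3. In air at P2 it called 1 higher, Dut, the dUTPase that keeps uracil out of DNA (0.75, SE 0.24, adjusted p 0.034), against 7.98% of all genes. That count was 12 higher without KO air P2 replicate 2, 2 lower without replicate 1, 3 lower without replicates 1 and 3 and 0 without any 1 of the WT air P2 arrays. With the other-tissue scores as covariates most members were called lower in KO at P2, the opposite direction to Dut in the main fit. Array weights called several members at P1. In air at P4 the main fit called 0, and 0 at an unadjusted p under 0.05, against 0.726% of all genes. Differences there lay between -0.18 and 0.26, and 95% intervals reached from -0.81 to 0.75.

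In oxygen the genotypes differed in 0 members at P2 and at P3 (0 and 1 with an unadjusted p under 0.05), against 2.96% and 5.13% of all genes. At P4 limma called 1 higher in KO, against 3.67% of all genes higher. It was Orc1 on the flat probe set, at 7.56, 7.37 and 7.46 in KO and 7.08, 7.22 and 7.07 in WT (0.34, SE 0.10, adjusted p 0.027), and the call was lost without WT O2 P4 replicate 1 or 3 or KO O2 P4 replicate 1 or 3. On the second Orc1 probe set the means were 6.13 in KO and 6.05 in WT.

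In air at P3, 29 of 39 members were called lower in KO (median -0.74), against 12.7% of all genes, and none higher. All 6 Mcm genes and all 5 helicase activation genes were called lower, with 10 of 14 fork genes, 8 of 10 licensing genes and 2 of 5 nucleotide supply genes. Ccne2 read 8.89, 8.69 and 8.72 in WT and 7.02, 6.51 and 6.56 in KO (-2.06, SE 0.29, limma adjusted p 5.3e-06). Cdc6 read 8.57, 8.27 and 8.14 in WT and 7.26, 6.71 and 7.01 in KO (-1.33, SE 0.34, adjusted p 0.0041). Both lay lower in every KO array than in any WT array. The same held for Pola1, at 7.44, 7.47 and 7.16 in KO against 8.85, 8.62 and 8.57 in WT (-1.32, SE 0.21, adjusted p 3.4e-05). Rrm2 read 10.48, 9.69 and 9.79 in KO against 11.46, 11.32 and 11.36 in WT (-1.39, SE 0.37, adjusted p 0.0068), and Cdc45 6.73, 6.39 and 6.57 against 7.78, 7.49 and 7.58 (-1.05, SE 0.22). Orc1 differed by 0.09 on the probe set used and by -0.69 on the second.

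Those KO arrays hold the skeletal muscle transcripts described above, and the array with a muscle score of 0.57 also had the highest members' mean of the 3, -0.17, which is below the lowest WT air P3 array at 0.33. Without the 2 muscle-rich arrays 3 members were called lower (median -0.55). Ccne2 (-1.74, limma adjusted p 0.0090) and Pola1 (-1.24, adjusted p 0.012) were among them. Cdc6 (-1.06, adjusted p 0.17), Rrm2 (-0.90, adjusted p 0.30) and Cdc45 (-0.89, adjusted p 0.085) were not. The covariate fit called 27 (median -0.72), and 22 were called (median -0.73) once all 17 arrays high in another tissue were left out, which left 1 array in each of these groups.

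Tests of the difference itself bear on P3, and each uses the KO air P3 arrays, so they and the comparison above share samples. The change in air from P1 to P3 was smaller in KO for 25 members (median -0.99), against 7.92% of all genes. That count was 16 without WT air P3 replicate 1, 15 without KO air P3 replicate 2 and 3 without both muscle-rich arrays. For the change from P1 to P4 limma called 0 members (1 with an unadjusted p under 0.05), against 0.0275% of all genes in either direction. The oxygen effect at P3 was higher in KO for 3 members, Ccne2 (1.88, SE 0.41, adjusted p 0.014), Pola1 (1.38, SE 0.30, adjusted p 0.014) and Mcm4 (0.93, SE 0.24, adjusted p 0.040), against 1.34% of all genes. It was 0 without WT O2 P3 replicate 1 and 0 without both muscle-rich arrays, and 22 members had an unadjusted p under 0.05.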

How the data were processed

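Whole-lung RNA of 42 mice, 1 mouse per array and 3 per group, was hybridised to Affymetrix 3′ arrays. The authors deposited log2 values per probe set, made with GCOS and RMA per the submitters' processing notes. For both, the version is not given in the sources used here. Background is corrected in RMA, which also gives all arrays one distribution and summarises probes. The deposited values were used unchanged (array medians 6.31 to 6.40). For arrays, their number limits the precision.

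Of 45101 probe sets 34958 carry 1 symbol, 932 several and 9211 none listed; only those with 1 symbol were used. Sample titles gave the groups. A single model held 14 group means of all arrays (limma 3.58.1, R 4.3.3, data reading with version 1.17.8 of data.table; lmFit, contrasts.fit, eBayes; 28 residual degrees of freedom), with 26 contrasts, two-sided tests and Benjamini-Hochberg adjustment over 18194 genes. The procedure was tested on simulated data.

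The members, the pathway, tissue and mitosis lists and the tests were chosen with earlier results of these data known, so a pattern among them is not independent evidence. Values in every array are given, per role, for the called members with the largest rise in WT air and the largest fall in WT oxygen, for members not called in WT air, and for others where a result turns on them. Outside the list, the largest change per pathway list and direction and all called inhibitors are named. Alternatives were cyclic loess, array weights, robust variances with an intensity trend, the upper 60 percent of genes by level, the mean of a gene's probe sets, only the arrays of a comparison, the replicate number as a block, other-tissue scores as covariates, leaving out arrays high in other tissues, and leaving out each array.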

Additional observations from a re-analysis of the deposited data

Results flagged for a closer look

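Between genotypes, the change in air from P1 to P3 differed by an interaction test in limma for 25 members, all smaller in KO. Over all genes 7.92% were called in that direction. Among the members given in every array the differences, KO minus WT, were -1.90 for Ccne2, -1.61 for Cdc6, -1.07 for Cdc45, -1.36 for Pola1, -1.14 for Lig1 and -1.27 for Tk1. The oxygen effect at P3 differed by the same kind of test for 3 members, 1.88 for Ccne2, 0.93 for Mcm4 and 1.38 for Pola1, all higher in KO. Over all genes 1.34% were called higher. Without KO air P3 replicate 2 the count of 25 became 15, and without WT O2 P3 replicate 1 the count of 3 became 0. Both sets of values rest on the KO air P3 arrays, of which replicates 2 and 3 had skeletal muscle scores of 6.13 and 2.72, and the part of those transcripts in them was not tested. Groups of 3 arrays were not searched for single outlying arrays.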

How the results depend on the processing

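For the members called from P1 to P4 in air (37 in WT, 36 in KO), every alternative run gave 33 to 39 calls, all higher. Calls at P4 in oxygen kept their direction under all alternatives run. With the replicate number as a block the same comparisons gave 37, 36, 26 and 29 calls and no count moved by over 1.5 times. Deviations of same-numbered arrays correlated with a median of 0.012, from -0.48 to 0.69, against a median of 0.015 for different numbers. Of the 42 arrays, 14 correlated best with their own number. The labels do not say whether same-numbered arrays share more than the number, and these values cannot decide it. Shares of all genes called are given for the main fit only, so a shift in the count of members is not set against all genes. The cause of the shifts below was not tested.

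Cyclic loess gave 1 call for KO oxygen at P2 and 0 for KO against WT in oxygen at P4. Array weights gave 25 for WT air P3 minus P2, 21 for WT oxygen at P2, 7 for KO oxygen at P2, 8, 2, 4, 2 and 0 for KO against WT in air at P1 and P2 and in oxygen at P2, P3 and P4, and 1 and 22 for the genotype difference of the oxygen effect at P2 and P3. The upper 60 percent of genes gave 2 for KO oxygen at P2 and 5 for the oxygen effect difference at P3. The mean of all probe sets gave 2 for KO against WT in air at P2 and 1 for that difference at P3. It turned Orc1 to 0.33 from P1 to P4 in WT air and to -0.30 for KO against WT in air at P3. Only the arrays of a comparison gave 0 for WT P3 minus P2, KO P2 minus P1, KO P3 minus P2, WT oxygen at P2 and KO against WT in air at P2 and in oxygen at P4, 1 for KO against WT in oxygen at P3, and 18 for the oxygen effect difference at P3. Other-tissue covariates gave 27 for WT P3 minus P2, 0, 11 (higher) and 11 for the KO air steps, 22 and 12 for WT oxygen at P2 and P4, 29 and 15 for KO oxygen at P2 and P4, 2 and 23 (both lower) for KO against WT in air at P1 and P2, 1 and 5 in oxygen at P3 and P4, and 2 and 23 for the oxygen effect difference at P2 and P3. Leaving out 17 arrays high in other tissues, after which 17 of 26 comparisons could be fitted, gave 0, 2 (higher) and 23 for the KO air steps, 23 for KO oxygen at P2, 8, 1 and 0 for KO against WT in oxygen at P2, P3 and P4, and 1 for the oxygen effect difference at P3.

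Alternatives chosen after seeing the data left out the thymocyte-rich KO air P2 arrays, with 0 for KO P2 minus P1 and for P3 minus P2, 8 for KO oxygen at P2 and 3 lower for KO against WT at P2. Leaving out the muscle-rich KO air P3 arrays gave 0 for KO P3 minus P2, 3 for KO P4 minus P3, for KO oxygen at P3, for KO against WT at P3 and for the air change difference at P3, and 0 for the oxygen effect difference. The mean rise of the nucleotide supply genes in WT air was 1.55, above their median. Leaving out each array in turn gave 0 to 4 for WT P3 minus P2, 9 to 31, 1 to 24 and 27 to 36 for the KO air steps, 0 to 13 for WT oxygen at P2, 16 to 20 at P4, 0 to 14, 17 to 28 and 17 to 29 for KO oxygen at P2, P3 and P4, 0 to 1, 0 to 12 and 23 to 29 for KO against WT in air at P1, P2 and P3, 0 to 1 in oxygen at P4, 0 to 4 for the oxygen effect difference at P2 and at P3, and 15 to 27 for the air change difference at P3. Of the calls of members given in every array, WT oxygen at P4 lost Tk1 in 9, Gins1 in 7, Pola1 in 5 and Cdc6 in 3 of 15 alternatives, and kept Ccne2, Lig1 and Chaf1b in all 15. KO oxygen at P4 lost Rrm2 in 5, Cdc6 in 4, Gins1 in 3 and Tk1 in 1 of 15. Some members not called there gained a call. In WT these were Cdc45, Rrm2 and Orc1, each in 2 of 15, and in KO it was Cdc45 in 3 of 15. Probe sets near the arrays' low end limit what can be seen for Tyms.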

Other observations

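The CCAAT box, a short promoter element bound by NF-Y, was searched for as CCAAT on both strands of the same windows and occurred in 18 of 33 members (54.5%), against 41.1% of all 27025 genes with a window. By role it was in 7 of 9 licensing genes, 3 of 3 helicase activation genes, 5 of 12 fork genes and 2 of 5 nucleotide supply genes. It was in 1 of 3 entry control genes and 0 of 1 chromatin assembly genes. The antioxidant response element, the sequence NRF2 binds, was searched for as TGACNNNGC on both strands and occurred in 8 of 33 members (24.2%), Cdc6, Dtl, Gins3, Orc6, Pcna, Rfc3, Rfc5 and Rrm2, against 14% of those genes. Matches of different motifs were counted separately and may share bases, and none was tested as a binding site.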
